A study of Mus musculus with 12 samples.

Results

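The genes described here are 35 chaperone and stress response genes of the mouse, chosen by name from the 54532 genes of an RNA sequencing table of cultured adult astrocytes. Of these, 13 serve protein folding in the endoplasmic reticulum (ER), 2 ER-associated degradation, and 5 are sensors and transcription factors of the unfolded protein response. The others are 5 output genes of the integrated stress response (ISR), 8 genes of the cytosolic heat shock system and 2 of the mitochondrial chaperonin. All 35 were in the table, and all passed the filter on low values. The name Ddit3 stood on 2 rows, of which the shorter, ENSMUSG00000116429, was at 0 in every library and was not used. The level of each gene is given in FPKM, which scales fragments by gene length and library size.

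The 12 libraries formed 6 groups of 2 in 3 experiments, all from cortex and hippocampus of C57BL/6 mice. The Ogt cKO group came from 4-month-old mice with a conditional knockout of Ogt, which encodes the O-GlcNAc transferase of nucleus and cytosol. The cKO control group came from mice of the same age. Both carry the same genotype label, Glast-CreERT2::Ogtfloxp/Y, in which a tamoxifen-dependent Cre recombinase is driven by an astrocyte promoter, and the sample descriptions tell them apart. The AD model group came from 5X APP amyloid mice and the AD control group from wild-type mice, both 6 months old by the sample labels and 5 months old by the series description. The Aβ-treated group held wild-type astrocytes of 2-month-old mice exposed to 20 µM amyloid-beta 1-42 (Aβ), for 72 hours by the label of 1 library and 73 hours by that of the other. The Aβ control group held untreated astrocytes of the same age. No label says that the libraries within a group stem from different animals or dishes. The p-values therefore measure only the spread between these libraries, which may be technical.

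Proteins that enter the ER are folded there by the HSP70 protein BiP (Hspa5), the HSP90 protein GRP94 (Hsp90b1), lectin chaperones and disulphide isomerases. When unfolded protein builds up, the sensors IRE1 (Ern1), PERK (Eif2ak3) and ATF6 start the unfolded protein response, which raises the chaperone genes through the spliced form of XBP1 and through cleaved ATF6, and which slows translation while ATF4 is made. In the cytosol, misfolded protein instead frees the transcription factor HSF1, which raises inducible HSP70 and HSP90 genes. Much of this control acts on splicing, cleavage, phosphorylation or translation, which a table of mRNA levels does not show. In astrocytes the PERK branch in particular has been tied to their reactive states.

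Promoter sequences were matched by symbol for 29 of the 35 genes (RefSeq, build GRCm38.p6, 250 bases before to 50 after each start). They are shown because they hold the elements through which these branches are known to act, so that genes which share an element can be set side by side. The ER stress element, CCAAT and CCACG with 9 bases between them (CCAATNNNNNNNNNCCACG, either strand), stood in the window of 7 of the 12 matched ER folding genes, in 0 of the other 17 matched genes and in 0.119% of all 32851 windows. The stretches below are written 5′ to 3′ on the strand of the gene, with the element in capitals.
Hspa5: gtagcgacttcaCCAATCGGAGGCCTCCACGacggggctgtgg
Hsp90b1: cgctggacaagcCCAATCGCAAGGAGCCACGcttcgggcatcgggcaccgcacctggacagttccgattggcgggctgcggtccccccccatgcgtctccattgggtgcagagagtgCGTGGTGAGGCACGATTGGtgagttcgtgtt
Pdia6: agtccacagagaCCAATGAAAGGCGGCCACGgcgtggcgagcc
Calr: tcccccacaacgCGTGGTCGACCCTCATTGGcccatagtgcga
Canx: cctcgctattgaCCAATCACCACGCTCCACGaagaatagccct
Dnajc3: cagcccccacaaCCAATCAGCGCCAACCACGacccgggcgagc
Creld2: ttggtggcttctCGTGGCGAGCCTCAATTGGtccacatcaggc
They lie at chr2:34772013-34772055 (plus strand) for Hspa5, chr10:86705521-86705668 (minus) for Hsp90b1 and chr12:17266479-17266521 (plus) for Pdia6. The others lie at chr8:84847063-84847105 (minus) for Calr, chr11:50325788-50325830 (minus) for Canx, chr14:118937815-118937857 (plus) for Dnajc3 and chr15:88819508-88819550 (plus) for Creld2. Hsp90b1 holds 2 copies, on opposite strands, while in Calr and Creld2 the element runs on the strand opposite to the gene. The 5 ER folding genes without this exact element were Pdia3, Pdia4, Dnajb9, Dnajb11 and Sdf2l1, and Hyou1 was not matched. Other spacings of the CCAAT and CCACG parts were not searched. In Herpud1 a CCAAT on the opposite strand lay 52 to 48 bases before the start, and a CCACG 46 to 42 bases before it. The CCAAT part alone stood in all 12 matched ER folding windows and in 37.4% of all windows, and the CCACG part in 11 of 12 and in 32.8%, counting those inside the full element.

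The core of the C/EBP-ATF response element, TGATGNAA on either strand, is the site through which ATF4 and its partners act on amino acid and stress genes. It was found in Asns, Chac1, Herpud1 and Trib3, 4 of 29 matched genes, and in 3.97% of all windows. The Trib3 match lay 14 to 21 bases after the start, and the other 3 before it.
Asns: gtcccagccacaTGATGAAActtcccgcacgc
Chac1: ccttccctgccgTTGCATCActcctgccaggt
Herpud1: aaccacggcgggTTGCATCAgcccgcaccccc
Their positions are chr6:7693213-7693244 (minus strand), chr2:119351037-119351068 (plus) and chr8:94386305-94386336 (plus). The heat shock element was searched as 3 alternating triplets, GAANNTTCNNGAA or TTCNNGAANNTTC, on either strand, and stood in 0.603% of all windows. It was found in Hspd1 and Hspe1, which are transcribed away from each other from 1 shared stretch at chr1:55088047-55088088, and after the start of Hsph1. These exact letters were not in the windows of Hspa1a, Hspa1b or Dnajb1, and inexact forms of the element were not searched. Only 4 of the 8 cytosolic genes had a matched window. Hsf1, Hspa8, Hsp90aa1 and Hsp90ab1 had none, and neither did Atf6. The shared stretch, read on the strand of Hspe1, holds 2 overlapping copies.
Hspe1: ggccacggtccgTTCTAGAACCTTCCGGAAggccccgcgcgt

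Gene-assigned reads numbered 16418852 to 18705309 per library. A count of 3 reads is worth 0.145 to 0.191 FPKM where the gene is 1 kilobase long, a floor that covers counting error only. The lowest value of any member was the 1.41 FPKM of Hspa1a in 1 library. Ogt itself was at 11.04 and 12.03 FPKM in Ogt cKO libraries, against 20.8 and 24.7 FPKM in cKO control libraries. It was at 18.3 and 19.9 FPKM in AD model and 10.03 and 22.7 in AD control libraries, and at 12.4 and 10.6 in Aβ-treated and 7.85 and 10.4 in Aβ control libraries. The libraries of the AD experiment differed most within a group. Over the 35 members the median fold between the 2 libraries was 1.24 in both AD groups, 1.12 in the Aβ-treated group, 1.17 in the Aβ control group and 1.05 in both groups of the cKO experiment.

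The most abundant members per length were the constitutive cytosolic chaperone genes, calreticulin, Pdia3 and BiP. Hsp90ab1, the constitutive cytosolic HSP90, ranged from 607 to 957 FPKM over the 12 libraries, and Hspa8, the constitutive cytosolic HSP70, from 365 to 654. Calr ranged from 316 to 571 and Hspa5 from 139 to 267. The inducible HSP70 genes stayed low in all 6 groups, with Hspa1b at 3.67 to 12.97 FPKM and Hspa1a at 1.41 to 3.32. The narrowest range belonged to Dnajb11, a DnaJ partner of BiP, whose highest library was 1.37 times its lowest. The widest belonged to Trib3, a pseudokinase induced by ATF4, at 5.77 times, followed by Hsp90aa1, the inducible cytosolic HSP90, at 4.11 times. The 3 control groups were themselves unlike. Asns, which makes asparagine and is a standard ATF4 target, was at 14.8 and 15.6 FPKM in cKO control libraries, 45.5 and 16.2 in AD control libraries and 47.4 and 32.98 in Aβ control libraries. The experiments differed in the age of the mice, so levels across them are given side by side only.

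**Figure D1:**
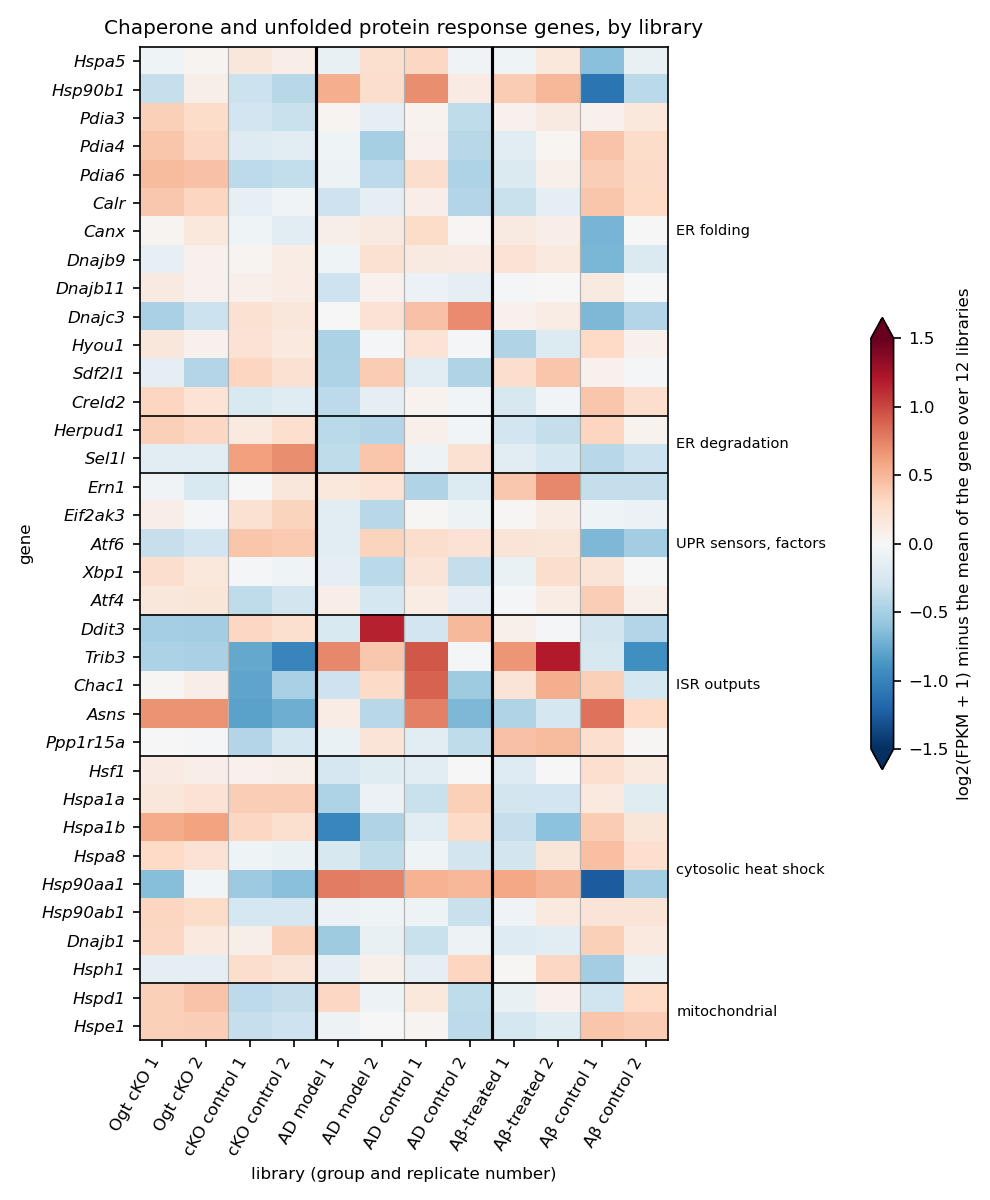
Level of each of the 35 genes in each of the 12 libraries, as log2(FPKM + 1) minus the mean of the gene over all libraries (red above, blue below, colours saturating at 1.5). Rows are ordered by role and columns by experiment, with 2 libraries a group. Asns, Pdia6 and Hspe1 are red in the Ogt cKO and Aβ control libraries, and Hsp90aa1 and Hsp90b1 are red in the AD and Aβ-treated libraries.

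The summed level of the 15 ER folding and degradation genes was 1944 and 1917 FPKM in Ogt cKO libraries, against 1549 and 1539 FPKM in cKO control libraries. AD model libraries had 1551 and 1608 FPKM and AD control libraries 1873 and 1415. Aβ-treated libraries had 1566 and 1727 and Aβ control libraries 1718 and 1790.3. The groups overlapped in 2 of the 3 experiments, and not in the cKO experiment. The 8 cytosolic genes summed to 1679 and 1649 FPKM in Ogt cKO and 1235 and 1230.0 in cKO control libraries. They reached 1344 and 1328 FPKM in AD model and 1381 and 1214 in AD control libraries, and 1343 and 1594 FPKM in Aβ-treated and 1640.0 and 1576 in Aβ control libraries, with overlap in both of these experiments. These sums follow the few most abundant genes and were not tested.

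**Figure D2:**
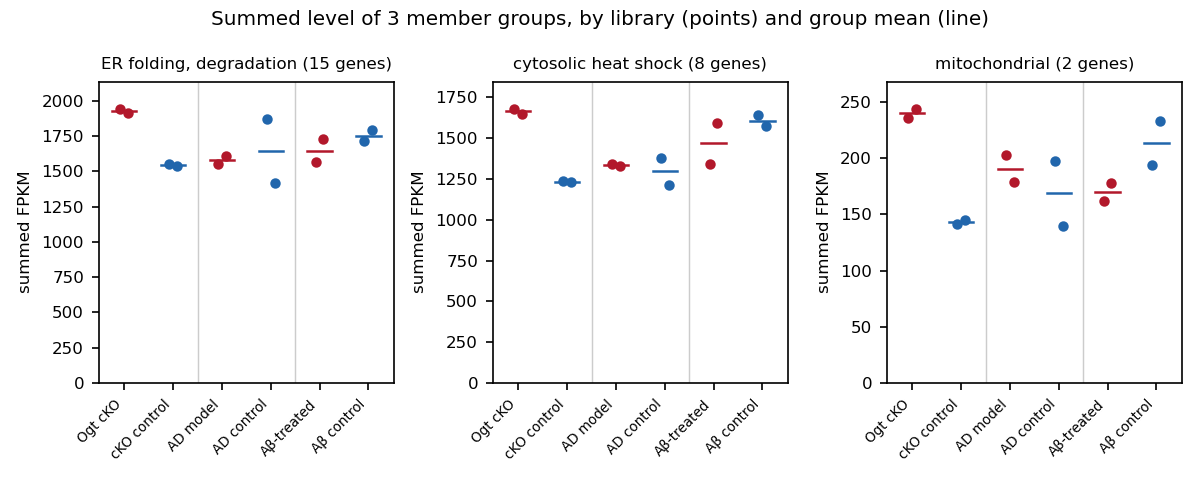
Summed FPKM of the ER genes (15), the cytosolic heat shock genes (8) and the mitochondrial chaperonin genes (2) in each library (points) and the group mean (line), with the Ogt cKO, AD model and Aβ-treated groups in red and their controls in blue. Both Ogt cKO libraries lie above both cKO control libraries in each panel, at 1917 and 1944 FPKM against 1539 and 1549 for the ER genes, while the AD groups overlap. The FPKM are as deposited, and rescaling to the total of reads would narrow the gap in the cKO experiment.

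The first comparison asks how loss of Ogt changes cultures labelled as astrocytes. In the Ogt cKO, the disulphide isomerase gene Pdia6, mitochondrial chaperonin and asparagine synthetase genes rose. The sensor Atf6, the co-chaperone Dnajc3 and the degradation adaptor Sel1l fell. BiP, CHOP (Ddit3) and the inducible heat shock genes did not pass the test, though Ddit3 and Hspa1b did in a fit of these 4 libraries alone. In the fit of all 12 libraries 8 members rose and 3 fell at adjusted p under 0.05 (limma, Benjamini-Hochberg over 14014 genes), against 4 and 5 after rescaling to the total of reads and 1 and 5 with quantile normalization. The first split is 31.4% of the members, while 42.3% of all genes tested were called in this comparison, 22.6% as higher and 19.8% as lower. With quantile normalization 2553 of all genes were called higher and 2782 lower. The median log2 change was 0.24 over the members and -0.00240 over all genes, and rescaling to the total of reads moved the median of all genes by -0.19 and gave -0.00392 for the members. With it Creld2, Atf4, Hsp90ab1 and Hspd1 lost their calls (adjusted p = 0.16, 0.18, 0.084 and 0.079), and with quantile normalization Asns was the only higher member. Dnajc3, Sel1l and Atf6 stayed called under both scalings. Other members were then called lower too: Sdf2l1 under both (log2 change -0.80 and -0.81, adjusted p = 0.023 and 0.028), Eif2ak3 under the first (-0.47, adjusted p = 0.019) and Hspa5 under the second (-0.83, adjusted p = 0.017). With a smooth trend on GC content and transcript length removed from each library, 7 of the 11 calls were kept. Creld2, Atf4, Hspd1 and Hspe1 lost theirs (log2 change 0.09, 0.25, 0.60 and 0.37, adjusted p = 0.61, 0.17, 0.057 and 0.054), and Sdf2l1 was called lower.

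Among the ER folding genes, Pdia6, a protein disulphide isomerase, was at 169 and 164 FPKM in Ogt cKO libraries, against 92.3 and 93.2 FPKM in cKO control libraries (log2 change 0.83 ± 0.23 SE, adjusted p = 0.019). Pdia3, the isomerase that works with calnexin and calreticulin, was at 375 and 353 FPKM in Ogt cKO libraries, against 239 and 232 FPKM in cKO control libraries (log2 change 0.62 ± 0.17 SE, adjusted p = 0.019), but had a change of -0.11 (adjusted p = 0.48) with quantile normalization. Creld2, a secreted ER stress marker, was at 55.6 and 50.98 FPKM in Ogt cKO libraries, against 37.5 and 38.9 FPKM in cKO control libraries (log2 change 0.47 ± 0.13 SE, adjusted p = 0.023). For these 3 genes both Ogt cKO libraries lay above both cKO control libraries. This adds little to the calls, since the groups of uncalled members such as Canx and Hsf1 did not overlap either. Dnajc3, the co-chaperone p58IPK that also inhibits PERK, went the other way, at 16.04 and 18.1 FPKM in Ogt cKO libraries, against 26.9 and 25.8 FPKM in cKO control libraries (log2 change -0.60 ± 0.14 SE, adjusted p = 0.012). BiP itself, Hspa5, was at 206 and 220.0 FPKM in Ogt cKO libraries, against 243 and 229 FPKM in cKO control libraries, and did not pass the test (log2 change -0.15 ± 0.21 SE, adjusted p = 0.59). The other 8 ER folding genes were not called, and their log2 changes ran from -0.56 for Sdf2l1 to 0.55 for Pdia4 (adjusted p = 0.051). Thus of the 7 genes that share the ER stress element, Pdia6 and Creld2 rose, Dnajc3 fell and Hspa5, Hsp90b1, Calr and Canx were not called.

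Sel1l, the adaptor of the HRD1 ubiquitin ligase in ER-associated degradation, was at 17.8 and 17.9 FPKM in Ogt cKO libraries, against 31.4 and 33.3 FPKM in cKO control libraries (log2 change -0.82 ± 0.23 SE, adjusted p = 0.020), and the cKO control libraries held its highest levels in the series. Herpud1, another part of that machinery, was at 30.7 and 29.7 FPKM in Ogt cKO and 26.4 and 28.5 in cKO control libraries and was not called (log2 change 0.13 ± 0.12 SE, adjusted p = 0.40). Of the sensors, Atf6 was at 4.17 and 4.36 FPKM in Ogt cKO libraries, against 7.78 and 7.60 FPKM in cKO control libraries (log2 change -0.72 ± 0.16 SE, adjusted p = 0.0083). Ern1 and Eif2ak3 were not called, with changes of -0.22 (adjusted p = 0.25) and -0.25 (adjusted p = 0.13), the second of which was called after rescaling to the total of reads. Atf4 was at 109.9 and 111 FPKM in Ogt cKO libraries, against 74.8 and 80.7 FPKM in cKO control libraries (log2 change 0.50 ± 0.17 SE, adjusted p = 0.040), and Xbp1 was not called (log2 change 0.26 ± 0.20 SE, adjusted p = 0.31).

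Among ISR outputs, Asns was at 42.98 and 42.8 FPKM in Ogt cKO libraries, against 14.8 and 15.6 FPKM in cKO control libraries (log2 change 1.44 ± 0.40 SE, adjusted p = 0.020). Its 2.82-fold ratio of means was the largest of any member here. Ddit3, which encodes the pro-apoptotic factor CHOP, had lower values, at 20.2 and 19.9 FPKM in Ogt cKO and 36.4 and 34.4 in cKO control libraries, and did not pass (log2 change -0.79 ± 0.39 SE, adjusted p = 0.13). Its groups did not overlap, as was so for other uncalled members. Trib3, Chac1, which degrades glutathione, and Ppp1r15a, the GADD34 subunit that restores translation, had changes of 0.40 (adjusted p = 0.35), 0.70 (adjusted p = 0.20) and 0.33 (adjusted p = 0.092). Among the genes with the C/EBP-ATF core, Asns alone was called, and Chac1, Herpud1 and Trib3 were not.

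In the cytosol only Hsp90ab1 was called, at 957 and 924 FPKM in Ogt cKO libraries, against 639 and 642 FPKM in cKO control libraries (log2 change 0.55 ± 0.16 SE, adjusted p = 0.026), but it had a change of -0.26 (adjusted p = 0.12) with quantile normalization. Hspa8 was at 586 and 556 FPKM in Ogt cKO and 455 and 446 in cKO control libraries (log2 change 0.34 ± 0.19 SE, adjusted p = 0.17). The transcription factor gene Hsf1 was at 7.65 and 7.49 FPKM in Ogt cKO and 7.32 and 7.48 in cKO control libraries (log2 change 0.03 ± 0.12 SE, adjusted p = 0.86). Hsp90aa1, Hspa1a, Hspa1b, Dnajb1 (an HSP40) and Hsph1 (an HSP110 exchange factor) ranged from -0.36 to 0.30 on the log2 scale without a call. Hspa1a and Hspa1b have coding sequences that are 99.4% identical, and how reads that match both were assigned is not given. Their sum was 15.2 and 15.8 FPKM in Ogt cKO libraries, against 13.7 and 13.2 FPKM in cKO control libraries. Both chaperonin genes rose. Hspd1 (HSP60) was at 126 and 133 FPKM in Ogt cKO libraries, against 74.6 and 76.7 FPKM in cKO control libraries (log2 change 0.77 ± 0.24 SE, adjusted p = 0.031). Its partner Hspe1 (HSP10) was at 109.5 and 111 FPKM in Ogt cKO libraries, against 67.2 and 68.5 FPKM in cKO control libraries (log2 change 0.69 ± 0.15 SE, adjusted p = 0.0080).

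These 11 calls rest on 2 libraries a side. Without Ogt cKO replicate 1 there were 0 calls among the members, without Ogt cKO replicate 2 there were 3, without cKO control replicate 1 there were 2 and without cKO control replicate 2 there were 0. The 11 genes kept the sign of their change in these fits. Calls over all genes also became fewer with either Ogt cKO library left out. In a fit of the 4 libraries alone all 11 stayed called, and 22 members were called, beside 8704 of all 14014 genes. Those gained included Ddit3 and Hsph1 as lower (limma, adjusted p = 0.0014 and 0.0076) and Hspa1b as higher (adjusted p = 0.019). Hspa5, Hsp90aa1 and Hspa1a stayed uncalled.

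The labelled cell type was checked against its markers. Gfap ranged from 29.1 to 298 FPKM over the 12 libraries, Aqp4 from 1.47 to 26.4 and Slc1a2 from 0.838 to 9.73. Markers of other cell types were also present, some at higher levels, such as Lyz2 (522 to 5762 FPKM) and Acta2 (171 to 3600 FPKM). In every library the summed microglia and macrophage markers (1109 to 9412 FPKM) exceeded the summed astrocyte markers (186 to 926 FPKM). The markers therefore do not show that the cultures were mostly astrocytes. In bulk RNA, fewer cells of a type cannot be told apart from less RNA per cell. Of 13 astrocyte markers tested 10 fell and 0 rose, with a summed level of 186 to 201 FPKM in Ogt cKO and 767 to 926 FPKM in cKO control libraries, and of 14 microglia and macrophage markers 7 fell and 0 rose (Ogt cKO 3076 to 4116, cKO control 7408 to 9412). Pericyte and smooth muscle markers rose in 4 of 8 cases and fell in 0 (Ogt cKO 4138 to 4179, cKO control 576 to 1116), endothelial markers in 7 of 9 and 0 (Ogt cKO 267 to 279, cKO control 42.7 to 52.7), and cell cycle genes in 13 of 15 and 0 (Ogt cKO 252 to 258, cKO control 66.2 to 92.96). Of 8 fibroblast markers 1 rose and 0 fell (Ogt cKO 2049 to 2051, cKO control 1207 to 1329, with 0 and 1 under quantile normalization), and of 11 oligodendrocyte lineage markers 1 rose and 6 fell (Ogt cKO 64.5 to 68.2, cKO control 192 to 379). Gjb6, a connexin of mature astrocytes, reached at most 0.326 FPKM in any of the 12 libraries, and the pericyte genes Kcnj8 and Abcc9 at most 0.333 and 0.0535. The neuronal genes Snap25, Syt1 and Rbfox3 stayed at or under 0.163 FPKM, while Stmn2 reached up to 19.3, Map2 5.75 and Nefl 3.35 FPKM. Most of the summed neuronal level (Ogt cKO 94.9 to 120.4, cKO control 110.1 to 186) was Tubb3. Of 4 neuronal genes tested 1 rose and 1 fell (0 and 2 with quantile normalization). The neuronal sum was 63.5 to 79.96 FPKM in AD model and 83.8 to 144 in AD control libraries. It was 46.0 to 54.6 FPKM in Aβ-treated and 93.6 to 122 in Aβ control libraries. Of 12 immediate early genes, which tissue handling can induce, 5 rose and 2 fell in the Ogt cKO (3 and 3 rescaled, 2 and 2 with quantile normalization), 1 and 0 in the AD model and 1 and 1 after Aβ. The part of these differences in the changes of the chaperone genes was not tested.

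**Figure D3:**
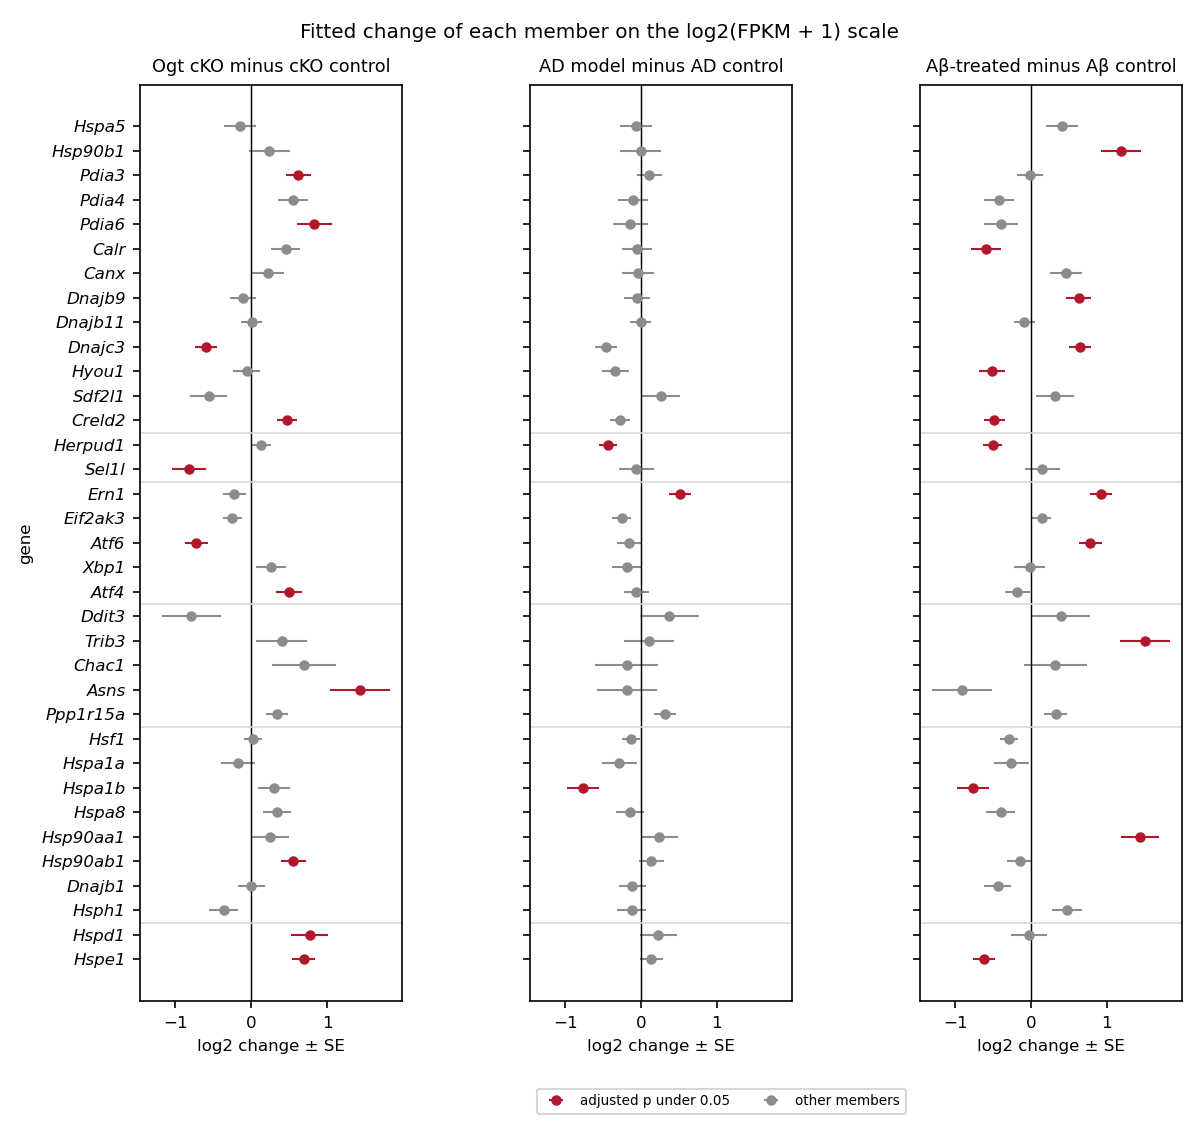
Fitted log2 change of each gene (point) with its standard error (bar) in the 3 comparisons, on the log2(FPKM + 1) scale, in red where the adjusted p is under 0.05. Genes run down by role, from ER folding to mitochondrial. Most changes lie within 1 of 0, and the 4 beyond that are Asns in the Ogt cKO, and Hsp90b1, Trib3 and Hsp90aa1 in the Aβ-treated group. Of the red points, Pdia3 and Hsp90ab1 in the Ogt cKO were negative with quantile normalization.

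The second comparison asks how cultures labelled as astrocytes differ between amyloid and wild-type mice. In the AD model 32 of the 35 members did not pass the test, among them all 13 ER folding genes. Ern1 rose, and Herpud1 and Hspa1b fell (1 higher and 2 lower, or 0 and 1 after rescaling to the total of reads and 0 and 2 with quantile normalization), which is 8.57% of the members. Of all genes tested 17.1% were called, 9.8% as higher and 7.27% as lower. With quantile normalization 1289 of all genes were called higher and 1328 lower. Ern1, which encodes IRE1, was at 6.70 and 6.96 FPKM in AD model libraries, against 4.04 and 4.96 FPKM in AD control libraries (log2 change 0.51 ± 0.15 SE, adjusted p = 0.044). Herpud1 was at 17.7 and 17.3 FPKM in AD model libraries, against 25.1 and 22.99 FPKM in AD control libraries (log2 change -0.44 ± 0.12 SE, adjusted p = 0.041). Hspa1b was at 3.67 and 5.70 FPKM in AD model libraries, against 7.13 and 10.2 FPKM in AD control libraries (log2 change -0.77 ± 0.21 SE, adjusted p = 0.035). The sum of Hspa1a and Hspa1b was 5.08 and 7.83 FPKM in AD model and 8.76 and 13.5 in AD control libraries. The groups did not overlap for any of the 3 genes, nor for uncalled members such as Hyou1, Creld2 and Eif2ak3. Dnajc3 had lower values, at 22.9 and 26.7 FPKM in AD model and 31.3 and 38.05 in AD control libraries, and just missed the threshold (log2 change -0.46 ± 0.14 SE, adjusted p = 0.058).

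Among the ER folding genes Hspa5 was at 199 and 253 FPKM in AD model libraries, against 267 and 207 FPKM in AD control libraries (log2 change -0.06 ± 0.21 SE, adjusted p = 0.88). Its groups overlapped. The median log2 change was -0.06 over the 15 ER genes, -0.13 over the 8 cytosolic genes and -0.0242 over all genes tested. The groups also overlapped for the ISR outputs Asns, Chac1, Trib3 and Ddit3, but not for Ppp1r15a. Asns was at 28.7 and 19.6 FPKM in AD model libraries, against 45.5 and 16.2 FPKM in AD control libraries. Chac1 was at 5.67 and 9.06 FPKM in AD model and 14.3 and 4.73 in AD control libraries, and Trib3 at 11.8 and 9.31 FPKM in AD model and 13.96 and 6.68 in AD control libraries. Each of these had its highest value of the 4 libraries in AD control replicate 1. Ddit3 was at 24.7 and 66.00 FPKM in AD model and 23.6 and 40.9 in AD control libraries, and its highest value in the whole series was in AD model replicate 2. After rescaling to the total of reads Ern1 and Hspa1b were past the threshold no more (adjusted p = 0.058 and 0.058). After removal of the GC and length trend Hspa1b was not called (adjusted p = 0.059) and Dnajc3 was (-0.62, adjusted p = 0.012). None of the 3 calls held in the fit of these 4 libraries alone (adjusted p = 0.30 to 0.35). With 1 library left out in turn, Herpud1 was lost in all 4 such fits, Ern1 in 3 of them (kept at adjusted p = 0.041) and Hspa1b in 2 (adjusted p up to 0.15).

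In the same libraries 10 of 14 microglia and macrophage markers rose and 0 fell (summed FPKM in AD model 3451 to 5824, AD control 1109 to 1703), and 11 of 15 cell cycle genes rose and 0 fell (AD model 202 to 278, AD control 82.2 to 102). Pericyte and smooth muscle markers fell in 6 of 8 cases and rose in 0 (AD model 262 to 877, AD control 1912 to 4062), fibroblast markers fell in 4 of 8 and rose in 0 (AD model 618 to 1280.1, AD control 1473 to 2685), and astrocyte markers fell in 4 of 13 and rose in 0 (AD model 392 to 426, AD control 568 to 786). Of 11 oligodendrocyte lineage markers 5 rose and 4 fell (AD model 362 to 421, AD control 252 to 295), and of 9 endothelial markers 0 were called (AD model 109 to 404, AD control 84.8 to 206). Their part in the 3 calls was not tested.

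The third comparison asks what exposure to Aβ peptide does to wild-type cultures labelled as astrocytes. Here the ER folding genes split: Hsp90b1, Dnajb9 and Dnajc3 rose while Calr, Hyou1 and Creld2 fell, and the sensors Ern1 and Atf6 rose with Trib3. In the cytosol Hsp90aa1 rose, while Hspa1b fell, and the mitochondrial Hspe1 fell too. In all 7 members rose and 6 fell, which is 37.1% of the members. Of all genes tested 35.9% were called, 20.8% as higher and 15.1% as lower, so the members' share is near the background. The split was 8 and 5 after rescaling to the total of reads and 7 and 5 with quantile normalization. With the latter 2371 of all genes were called higher and 2634 lower. Hyou1 lost its call under both (limma, adjusted p = 0.054 and 0.067) and Calr under the second (adjusted p = 0.052). With the GC and length trend removed, the rises of Hsp90b1, Dnajb9 and Dnajc3 all lost their calls. Of the falls, that of Creld2 was lost, and those of Calr and Hyou1 stayed called (adjusted p = 0.026 and 0.027). The median log2 change was -0.02 over the members and -0.0367 over all genes.

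Hsp90b1, the HSP90 of the ER, was at 134 and 145 FPKM in Aβ-treated libraries, against 47.7 and 77.2 FPKM in Aβ control libraries (log2 change 1.19 ± 0.27 SE, adjusted p = 0.0087). Dnajb9, a DnaJ partner of BiP that represses IRE1, was at 19.9 and 18.98 FPKM in Aβ-treated libraries, against 10.2 and 14.5 FPKM in Aβ control libraries (log2 change 0.63 ± 0.17 SE, adjusted p = 0.019). Dnajc3 was at 23.9 and 24.8 FPKM in Aβ-treated libraries, against 13.9 and 16.7 FPKM in Aβ control libraries (log2 change 0.64 ± 0.14 SE, adjusted p = 0.0086). In these genes both treated libraries lay above both control libraries, as they did for the uncalled Hspa5 and Canx. Calr, the soluble lectin chaperone, was at 339.8 and 389.7 FPKM in Aβ-treated libraries, against 571 and 526 FPKM in Aβ control libraries (log2 change -0.59 ± 0.19 SE, adjusted p = 0.043). Hyou1, the exchange factor of BiP, was at 26.1 and 31.04 FPKM in Aβ-treated libraries, against 44.7 and 37.9 FPKM in Aβ control libraries (log2 change -0.52 ± 0.17 SE, adjusted p = 0.046). Creld2 was at 37.2 and 42.99 FPKM in Aβ-treated libraries, against 59.4 and 53.3 FPKM in Aβ control libraries (log2 change -0.48 ± 0.13 SE, adjusted p = 0.022). For these 3 genes both treated libraries lay below both control libraries, as they did for the uncalled Pdia4 and Pdia6. BiP had higher values that did not pass, with Hspa5 at 206 and 239 FPKM in Aβ-treated and 139 and 199 in Aβ control libraries (log2 change 0.41 ± 0.21 SE, adjusted p = 0.16). So did the membrane lectin chaperone gene Canx, at 138 and 134 FPKM in Aβ-treated and 76.9 and 126 in Aβ control libraries (log2 change 0.46 ± 0.21 SE, adjusted p = 0.12). Of the 7 genes with the ER stress element, Hsp90b1 and Dnajc3 rose, Calr and Creld2 fell, and Hspa5, Pdia6 and Canx were not called. The remaining ER folding genes, Pdia3, Pdia4, Pdia6, Dnajb11 and Sdf2l1, were not called, with changes from -0.42 for Pdia4 to 0.31 for Sdf2l1. Herpud1 fell, at 19.3 and 18.4 FPKM in Aβ-treated and 30.04 and 24.6 in Aβ control libraries (log2 change -0.51 ± 0.12 SE, adjusted p = 0.012).

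Among the sensors Ern1 was at 8.16 and 10.4 FPKM in Aβ-treated libraries, against 4.37 and 4.38 FPKM in Aβ control libraries (log2 change 0.93 ± 0.15 SE, adjusted p = 0.0018). Atf6 was at 6.498 and 6.47 FPKM in Aβ-treated libraries, against 3.12 and 3.57 FPKM in Aβ control libraries (log2 change 0.79 ± 0.16 SE, adjusted p = 0.0052). Both genes were higher in each treated library than in either control library, as was the uncalled Eif2ak3. Eif2ak3, Xbp1 and Atf4 were not called, with changes of 0.14 (adjusted p = 0.40), -0.02 (adjusted p = 0.95) and -0.18 (adjusted p = 0.43). Trib3 was at 11.3 and 16.8 FPKM in Aβ-treated libraries, against 5.59 and 3.14 FPKM in Aβ control libraries (log2 change 1.505 ± 0.33 SE, adjusted p = 0.0081). This 3.22-fold ratio of means was the largest of any member in this comparison. Asns had lower values, at 19.2 and 22.03 FPKM in Aβ-treated and 47.4 and 32.98 in Aβ control libraries, and did not pass (log2 change -0.91 ± 0.40 SE, adjusted p = 0.10). Ddit3, Chac1 and Ppp1r15a had changes of 0.39 (adjusted p = 0.46), 0.32 (adjusted p = 0.57) and 0.32 (adjusted p = 0.11). Of the genes with the C/EBP-ATF core, Trib3 rose, Herpud1 fell, and Asns and Chac1 were not called.

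The cytosolic HSP90 genes parted in the treated cells. Hsp90aa1, the stress-inducible form, was at 154 and 146 FPKM in Aβ-treated libraries, against 42.5 and 70.9 FPKM in Aβ control libraries (log2 change 1.44 ± 0.25 SE, adjusted p = 0.0025). The constitutive Hsp90ab1 was at 739.9 and 846 FPKM in Aβ-treated and 876 and 875 in Aβ control libraries and was not called (log2 change -0.15 ± 0.16 SE, adjusted p = 0.51). Hspa1b was at 6.21 and 4.97 FPKM in Aβ-treated libraries, against 10.99 and 9.41 FPKM in Aβ control libraries (log2 change -0.77 ± 0.21 SE, adjusted p = 0.020). Hspa1a and Hspa1b together were at 7.96 and 6.71 FPKM in Aβ-treated and 13.7 and 11.3 in Aβ control libraries. Hspa8, Hsf1, Dnajb1 and Hsph1 were not called, with changes from -0.44 for Dnajb1 to 0.47 for Hsph1. Hspe1 was at 71.3 and 75.4 FPKM in Aβ-treated libraries, against 115 and 112 FPKM in Aβ control libraries (log2 change -0.62 ± 0.15 SE, adjusted p = 0.011). Its neighbour Hspd1, from the same stretch with the heat shock element, was at 90.7 and 103 FPKM in Aβ-treated and 79.8 and 122 in Aβ control libraries without a call (log2 change -0.03 ± 0.24 SE, adjusted p = 0.93). The groups overlapped for Hspd1 and not for Hspe1.

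The calls of Ern1, Atf6 and Hsp90aa1 held in each of the 4 fits that left out 1 library, and the other 10 did not. Of the 13 genes 4 were called without Aβ control replicate 1, 10 without Aβ control replicate 2, 7 without Aβ-treated replicate 1 and 6 without Aβ-treated replicate 2 (limma, adjusted p up to 0.24). Calls over all genes became fewer in these fits too. Dnajb9, Hsp90b1, Canx, Dnajc3 and Hsp90aa1 have the lowest GC content of the members (40.6 to 43.7% in the longest annotated transcript). Of these, 4 are among the 7 that rose, which spanned 40.6 to 58.2%, with Trib3 the highest. The part of GC content in these changes was not tested. After removal of the GC and length trend from each library, 8 of the 13 calls were kept and 5 were lost. The change of Hsp90aa1 was 1.04 (adjusted p = 0.0069), that of Hsp90b1 0.70 (adjusted p = 0.056), that of Dnajc3 0.20 (adjusted p = 0.25) and that of Dnajb9 0.10 (adjusted p = 0.65). Creld2 (-0.31, adjusted p = 0.11) and Hspa1b (-0.61, adjusted p = 0.074) lost their calls too.

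After Aβ pericyte and smooth muscle markers fell in 6 of 8 cases and rose in 0 (Aβ-treated 566 to 585, Aβ control 3715 to 4262). Microglia and macrophage markers rose in 6 and fell in 2 of 14 (Aβ-treated 4841 to 6398, Aβ control 2327 to 3865), endothelial markers rose in 6 of 9 and fell in 0 (Aβ-treated 719 to 986, Aβ control 267 to 328), and oligodendrocyte lineage markers rose in 7 and fell in 1 of 11 (Aβ-treated 175 to 305, Aβ control 59.5 to 77.7). Fibroblast markers rose in 1 and fell in 3 of 8 (Aβ-treated 904 to 1338, Aβ control 1636 to 1752), cell cycle genes rose in 3 of 15 and fell in 0 (Aβ-treated 222 to 251, Aβ control 243 to 244), and astrocyte markers rose in 3 and fell in 1 of 13 (Aβ-treated 200.3 to 353, Aβ control 202 to 208). Their part in the changes of the chaperone genes was not tested.

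**Figure D4:**
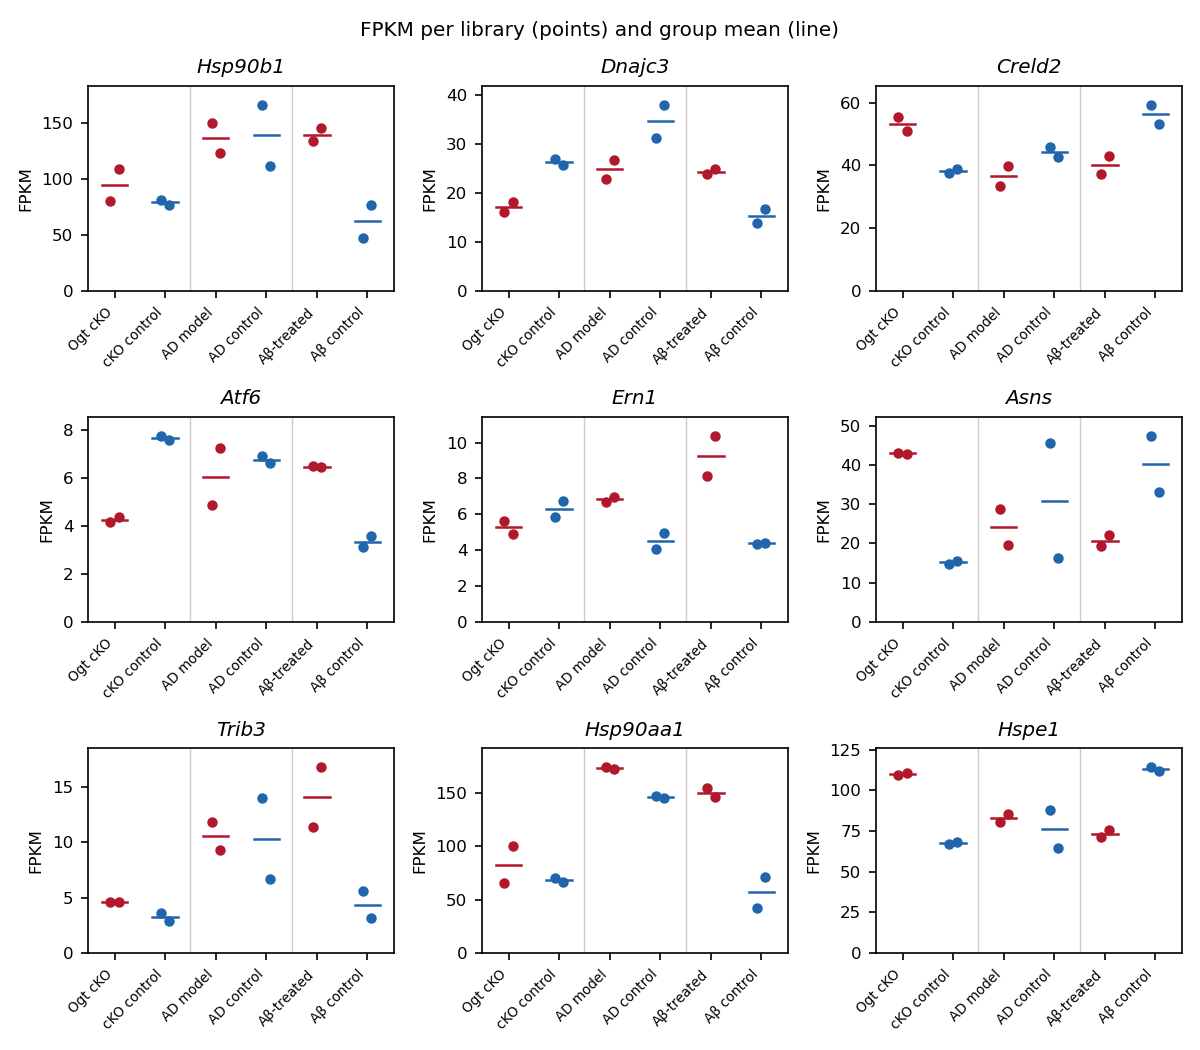
FPKM of 9 members in each library (points) and the group mean (line), with the Ogt cKO, AD model and Aβ-treated groups in red and their controls in blue, on axes that start at 0. Asns, Creld2 and Hspe1 are high in the Ogt cKO and Aβ control groups, where Dnajc3 and Atf6 are low. The AD control libraries lie far apart for Asns, at 45.5 and 16.2 FPKM.

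The effects of the cKO and of Aβ, which share no control libraries, were compared by a contrast of the same fit. They differed for 18 of the 35 members, or 51.4%, beside 52.3% of all genes tested. The difference was positive for 11 members (25.7% of all genes) and negative for 7 (26.6%), or 6 and 12 after rescaling to the total of reads and 4 and 10 with quantile normalization. With the latter it was positive for 3385 of all genes and negative for 3197. The largest difference was that of Asns, 2.35 ± 0.56 SE on the log2 scale (adjusted p = 0.0078), with higher values in the Ogt cKO and lower ones after Aβ. Atf6 differed by -1.51 ± 0.22 SE (adjusted p = 9.6e-04), and Dnajc3 by -1.24 ± 0.20 SE (adjusted p = 0.0015). Both fell in the Ogt cKO and rose after Aβ, though the Aβ call of Dnajc3 was lost with the GC and length trend removed. Hspe1 and Creld2 did the reverse, with differences of 1.31 (adjusted p = 0.0014) and 0.95 (adjusted p = 0.0036). After removal of the GC and length trend, 10 of the 18 differences were kept. Dnajb9, Creld2, Herpud1, Sel1l, Atf4, Hspa1b, Hsp90aa1 and Hsph1 lost the call (adjusted p = 0.054 to 0.27), the difference of Creld2 being 0.40 (adjusted p = 0.11). Pdia4, Hspa8 and Hsph1 were called for this difference and in neither experiment alone. Pdia4 was at 153 and 143 FPKM in Ogt cKO and 100.1 and 101 in cKO control libraries, and at 102 and 118 FPKM in Aβ-treated and 155 and 139 in Aβ control libraries. Hspa8 was at 393 and 541 FPKM in Aβ-treated and 654 and 565 in Aβ control libraries. Hsph1 was at 17.2 and 17.4 FPKM in Ogt cKO and 23.1 and 22.1 in cKO control libraries, and at 19.5 and 23.96 FPKM in Aβ-treated and 13.1 and 17.8 in Aβ control libraries. Atf6, Dnajc3, Hspe1 and Creld2 were called in both experiments. With the GC and length trend removed, Hspe1 and Creld2 lost their cKO calls (limma, adjusted p = 0.054 and 0.61). Of these genes Atf6 alone then stayed called in both (adjusted p = 0.024 in the cKO and 0.047 after Aβ). In level, Hspe1 was at 109.5 and 111 FPKM in the Ogt cKO and 115 and 112 in the Aβ control, while Atf6 was at 4.17 and 4.36 in the Ogt cKO and 3.12 and 3.57 in the Aβ control.

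The cKO and AD effects differed for 4 members, or 11.4%, beside 25.6% of all genes tested (13.7% positive and 11.9% negative). They were Hspa1b, by 1.07 (adjusted p = 0.029), Creld2, by 0.75 (adjusted p = 0.023), Ern1, by -0.73 (adjusted p = 0.033) and Herpud1, by 0.57 (adjusted p = 0.042). After rescaling to the total of reads Hspa1b, Creld2 and Herpud1 were not called (adjusted p = 0.094, 0.072 and 0.19), which left 0 positive and 3 negative differences (Ern1, Sdf2l1 and Atf6). With quantile normalization Creld2, Herpud1 and Ern1 were not called (adjusted p = 0.073, 0.083 and 0.054). After removal of the GC and length trend none of the 4 was called (adjusted p = 0.056 to 0.13), and the 2 differences called then were those of Pdia6 and Sdf2l1. The AD and Aβ effects differed for 2, or 5.71%, beside 6.14% of all genes (1.52% positive and 4.62% negative). They were Dnajc3, by -1.11 (adjusted p = 0.018) and Atf6, by -0.94 (adjusted p = 0.042). Atf6 lost this call with quantile normalization (adjusted p = 0.087) and with the trend removed (adjusted p = 0.14). Herpud1 and Hspa1b were called lower, and Ern1 higher, in both amyloid experiments, but none of these AD calls held in the fit of the AD libraries alone. With the trend removed Hspa1b was called in neither (limma, adjusted p = 0.059 in the AD model and 0.074 after Aβ). No member was called in all 3 comparisons, 7 were called in 2 (20.0%), 13 in 1 (37.1%) and 15 in none (42.9%). Over all 14014 genes 5.00% were called in 3 comparisons, 20.7% in 2, 38.9% in 1 and 35.4% in none. The uncalled ones were Hspa5, Pdia4, Canx, Dnajb11, Sdf2l1, Eif2ak3, Xbp1, Ddit3, Chac1, Ppp1r15a, Hsf1, Hspa1a, Hspa8, Dnajb1 and Hsph1.

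A further 140 genes of these pathways, 136 of them tested, gave the surroundings of the members. In the Ogt cKO 48 rose and 15 fell (46.3%, beside 42.3% of all genes tested), or 34 and 28 after rescaling to the total of reads and 31 and 20 with quantile normalization. In the AD model 5 rose and 9 fell (10.3%, beside 17.1%), and after Aβ 20 rose and 28 fell (35.3%, beside 35.9%). The total shares in the Ogt cKO and after Aβ are near those of all genes. The splits by direction differ from those of all genes before any rescaling. In the Ogt cKO that split depends on the scaling, with 34 and 28 after rescaling to the total of reads. For the AD model and Aβ the split of this list under other scalings is not given. Of all genes tested 22.6% rose and 19.8% fell in the Ogt cKO, and 20.8% rose and 15.1% fell after Aβ. In the AD model 9.8% rose and 7.27% fell. The cytosolic chaperones, co-chaperones and the TCP-1 ring complex held 14 of 38 genes that rose and 3 that fell in the Ogt cKO (13 and 4 rescaled, 11 and 3 with quantile normalization), 0 and 4 in the AD model and 5 and 11 after Aβ. Hspb1, the small heat shock protein HSP27, rose in the Ogt cKO (Ogt cKO 472 ± 16.2, cKO control 112 ± 52.4 FPKM, mean ± SD, n = 2) and fell in the AD model (AD model 160.4 ± 38.99, AD control 388 ± 97.3 FPKM). The chaperonin ring genes Cct8 and Cct7 rose in the Ogt cKO (Ogt cKO 127 ± 4.09, cKO control 64.2 ± 2.82 FPKM and Ogt cKO 67.4 ± 2.73, cKO control 34.5 ± 0.228 FPKM). Cryab, the small heat shock protein alpha-B crystallin, fell after Aβ (Aβ-treated 99.6 ± 27.04, Aβ control 521 ± 29.7 FPKM). Hspa2, an HSP70 best known from the testis, fell in the AD model (AD model 7.05 ± 1.49, AD control 15.7 ± 2.20 FPKM) and after Aβ (Aβ-treated 5.65 ± 0.565, Aβ control 11.00 ± 0.647 FPKM), as did Dnajb4 in the AD model (AD model 5.80 ± 0.471, AD control 13.4 ± 0.857 FPKM) and Hspa12a after Aβ (Aβ-treated 1.42 ± 0.273, Aβ control 5.55 ± 1.03 FPKM).

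Of 22 further ER folding genes tested, 9 rose and 3 fell in the Ogt cKO (4 and 6 rescaled to the total of reads, 2 and 4 with quantile normalization), 0 and 3 did in the AD model and 3 and 6 after Aβ (1 and 4 with quantile normalization). Rcn3, a calcium-binding protein of the secretory pathway that helps collagen production, rose in the Ogt cKO (Ogt cKO 223 ± 7.80, cKO control 122 ± 13.5 FPKM) and fell in the AD model (AD model 75.2 ± 20.5, AD control 187 ± 49.2 FPKM) and after Aβ (Aβ-treated 62.1 ± 7.59, Aβ control 204 ± 25.9 FPKM). The isomerase gene Pdia5 rose in the Ogt cKO (Ogt cKO 18.6, cKO control 6.42 FPKM), as did the prolyl isomerase gene Fkbp11 (Ogt cKO 11.6 ± 0.0128, cKO control 0.963 ± 0.0577 FPKM). Txndc5 and Fkbp14, also tied to collagen folding, fell in the AD model (AD model 60.3 ± 1.77, AD control 88.5 ± 7.16 FPKM and AD model 8.76 ± 0.998, AD control 16.5 ± 0.826 FPKM) and after Aβ (Aβ-treated 51.8 ± 5.59, Aβ control 111 ± 7.39 FPKM and Aβ-treated 8.75 ± 0.103, Aβ control 16.7 ± 1.87 FPKM). Of 18 further degradation genes 5 rose and 3 fell in the Ogt cKO (1 and 7 rescaled, 2 and 5 with quantile normalization), 0 and 1 in the AD model and 3 and 3 after Aβ (3 and 2 rescaled, 3 and 1 with quantile normalization). Edem3, a mannosidase that marks misfolded glycoproteins, fell in the Ogt cKO (Ogt cKO 5.13 ± 0.717, cKO control 9.94 ± 0.185 FPKM) and rose after Aβ (Aβ-treated 8.36 ± 0.715, Aβ control 3.91 ± 1.21 FPKM), the directions of Atf6 and Dnajc3. Ube2g2 and Ufd1, which act in ubiquitination and extraction, rose in the Ogt cKO (Ogt cKO 51.5 ± 3.97, cKO control 33.4 ± 1.09 FPKM and Ogt cKO 18.2 ± 0.447, cKO control 13.2 ± 1.11 FPKM). The selenoprotein gene Selenok fell in the AD model (AD model 43.3 ± 6.46, AD control 62.3 ± 4.22 FPKM), the selenoprotein gene Selenos fell after Aβ (Aβ-treated 38.7 ± 2.30, Aβ control 61.03 ± 10.4 FPKM), and Ubxn4 rose after Aβ (Aβ-treated 27.1 ± 1.38, Aβ control 14.96 ± 5.51 FPKM).

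Of 28 further genes of the integrated stress response 9 rose and 3 fell in the Ogt cKO, 4 and 1 in the AD model and 6 and 2 after Aβ (7 and 2 under both scalings). For the Ogt cKO the counts were 9 and 4 both after rescaling to the total of reads and with quantile normalization. Atf3, an immediate stress factor below ATF4, fell in the Ogt cKO (Ogt cKO 9.40 ± 0.771, cKO control 49.2 ± 13.7 FPKM) and rose after Aβ (Aβ-treated 63.97 ± 8.10, Aβ control 7.20 ± 0.667 FPKM). Cebpb, a partner of ATF4 that also serves in inflammation, rose in the Ogt cKO (Ogt cKO 106 ± 7.72, cKO control 32.6 ± 4.42 FPKM) and in the AD model (AD model 137 ± 48.2, AD control 40.9 ± 0.507 FPKM). Its relative Cebpg rose after Aβ (Aβ-treated 11.1 ± 0.179, Aβ control 3.62 ± 0.592 FPKM). Atf5 fell in the AD model (AD model 45.5 ± 4.24, AD control 105 ± 14.2 FPKM) and after Aβ (Aβ-treated 48.1 ± 1.36, Aβ control 96.9 ± 18.6 FPKM), and the translation inhibitor gene Eif4ebp1 rose in the Ogt cKO (Ogt cKO 66.2 ± 0.288, cKO control 24.97 ± 1.94 FPKM). Slc7a11, the cystine transporter, rose in the AD model with a wide spread (AD model 22.5 ± 18.6, AD control 0.636 ± 0.404 FPKM).

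Among 18 further regulators of these pathways 6 rose and 3 fell in the Ogt cKO (3 and 6 rescaled to the total of reads, 3 and 4 with quantile normalization), 1 and 0 in the AD model and 2 and 3 after Aβ. Eif2ak2 rose in both amyloid experiments. It encodes the double-stranded RNA kinase PKR, which phosphorylates the same factor as PERK and is also induced by interferon. Its means were AD model 24.3 ± 0.854, AD control 6.12 ± 0.367 FPKM, and Aβ-treated 20.1 ± 3.00, Aβ control 1.79 ± 0.0421 FPKM, while Eif2ak3 was called in neither. In the Ogt cKO Eif2s1, the eIF2α subunit that these kinases phosphorylate, rose (Ogt cKO 30.4 ± 0.420, cKO control 12.2 ± 1.59 FPKM), Creb3l1, an ER-bound factor for collagen secretion, rose (Ogt cKO 58.2 ± 2.04, cKO control 17.8 ± 0.0109 FPKM), and Mbtps1, the protease that cleaves ATF6, fell (Ogt cKO 18.4 ± 0.728, cKO control 32.2 ± 2.34 FPKM). After Aβ Wfs1, an ER membrane protein, fell (Aβ-treated 12.3 ± 1.03, Aβ control 21.96 ± 4.99 FPKM), as did Rtcb, the ligase that joins spliced Xbp1 (Aβ-treated 49.5 ± 2.33, Aβ control 70.7 ± 9.10 FPKM). Of 12 further mitochondrial genes 5 rose and 0 fell in the Ogt cKO (4 and 1 rescaled, 4 and 0 with quantile normalization), 0 were called in the AD model and 1 rose and 3 fell after Aβ (2 and 3 rescaled, 1 and 3 with quantile normalization). Clpp, Grpel1 and Atad3a rose in the Ogt cKO (Ogt cKO 52.9 ± 1.24, cKO control 29.1 ± 2.30 FPKM, Ogt cKO 27.9 ± 1.52, cKO control 15.3 ± 0.120 FPKM and Ogt cKO 17.4 ± 0.575, cKO control 8.38 ± 0.222 FPKM). The protease gene Yme1l1 rose after Aβ (Aβ-treated 11.4 ± 0.315, Aβ control 4.14 ± 1.27 FPKM), while Spg7 and Atad3a fell (Aβ-treated 22.4 ± 0.588, Aβ control 30.98 ± 0.0484 FPKM and Aβ-treated 11.1 ± 1.45, Aβ control 19.5 ± 2.73 FPKM).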

How the data were processed

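Astrocytes were cultured without any sorting step that the labels describe, and RNA from TRIzol extraction went into Illumina libraries, per the labels' protocols. The authors deposited FPKM per gene and library in 1 table that also lists gene lengths. Build mm10 is named per the submitters' processing notes. For the aligner, counter, annotation and treatment of ambiguous reads, the sources used here give nothing. Multiplying FPKM by length gave steps of whole reads (100% of values within 0.1 of a read), from which depth was taken.

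Sample descriptions set the groups. Kept genes (14014) had 1 FPKM or more in 2 or more of the 12 libraries. The test was limma 3.58.1 (R 4.3.3) on log2(FPKM + 1), which makes folds of low genes appear smaller. A single model held the 6 group means and a trend of variance on level, and p-values, two-sided, were adjusted by Benjamini-Hochberg over all kept genes and called at 0.05. The method was tried on simulated counts with the same dispersion in every group. The groups here differ in spread, so that trial cannot show how reliable the calls are in these data. Differences between effects were contrasts of the same model. The members and lists were chosen with earlier results of these data known. All members are accounted for, with values per library for those called in a comparison or differing between experiments. Of the other pathway genes up to 3 per list and comparison were named, the smallest p first, given 5 FPKM or more in the higher group. Marker and context lists are given by counts and sums. Alternatives covered offsets of 0.1 and 0.5, the filter (absent, or 5 FPKM), median-of-ratios and quantile scaling, a block on replicate number, robust empirical Bayes, fits limited to the libraries compared, and omission of single libraries. The following 4 were added after the data were seen: rescaling to the total of reads, voom on reads regained from the FPKM steps, removal of a GC and length trend (splines with 5 degrees of freedom, GENCODE transcripts) and crossed replicate numbers in the Aβ control. Figures came from matplotlib 3.10.9 (Python 3.11.15).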

Additional observations from a re-analysis of the deposited data

Results flagged for a closer look

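For 18 of the 35 genes the effect of 1 experiment differed from that of another, by a contrast of the 2 effects with an adjusted p under 0.05 (limma). That is 51.4% of them, beside 54.5% of all 14014 genes, so the count is near the background. Values are the first effect minus the second, on the log2 scale, and were obtained from 4 libraries an experiment.

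Against the Aβ effect, the cKO effect was higher for the ER folding genes Pdia6 (1.23), Calr (1.04), Pdia4 (0.97) and Creld2 (0.95), and for Herpud1 (0.64), Atf4 (0.68) and Asns (2.35). It was also higher for the cytosolic genes Hspa1b (1.07), Hspa8 (0.74) and Hsp90ab1 (0.70), of which Hspa8 (-0.10) and Hsp90ab1 (-0.42) were negative with quantile normalization, and for the mitochondrial Hspe1 (1.31). It was lower for Dnajc3 (-1.24), Dnajb9 (-0.73), Sel1l (-0.98), the sensors Atf6 (-1.51) and Ern1 (-1.15), Hsp90aa1 (-1.19) and Hsph1 (-0.84). After removal of the GC and length trend 10 of these 18 were called. Pdia4, Hspa8 and Hsph1 were called here although neither experiment alone called them. Against the AD effect, the cKO effect was higher for Hspa1b (1.07), Creld2 (0.75) and Herpud1 (0.57) and lower for Ern1 (-0.73). The 3 higher ones were not called after rescaling to the total of reads, and none of the 4 was called after removal of the GC and length trend. The AD effect was lower than the Aβ effect for Dnajc3 (-1.11) and Atf6 (-0.94), the second not called with quantile normalization or the trend removed.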

How the results depend on the processing

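With 2 libraries a group, a change had to be large beside the spread shared by all 12 libraries to be called. Of 129 results on single genes, all kept direction and side of the threshold with offsets of 0.1 or 0.5 FPKM, median-of-ratios scaling, robust empirical Bayes and, added after seeing the data, voom on the recovered reads, apart from sign changes of 5 uncalled values under median-of-ratios scaling. Over all alternatives uncalled values changed sign 88 times. The cause was not tested for any of the differences below.

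Without a filter on low values the members called were 7 of 11 in the cKO and 1 of 3 in the AD comparison, and 1 of 4 (cKO minus AD) and 1 of 2 (AD minus Aβ) differences between effects. Quantile normalization gave 6 in the cKO, 2 differences for cKO minus AD and 1 for AD minus Aβ. The 4 libraries of a comparison alone gave 22 in the cKO and 0 in the AD comparison, and the libraries of 2 experiments alone gave 1 difference for cKO minus AD and 0 for AD minus Aβ. Rescaling to the total of reads gave 1 in the AD comparison, and removal of the trend on GC content and length gave 2 differences for cKO minus AD, with 0 of the 4 genes shared, and 1 for AD minus Aβ. It kept 7 of 11 calls in the cKO, 2 of 3 in the AD and 8 of 13 in the Aβ comparison, and 10 of 18 differences for cKO minus Aβ. After rescaling to the total of reads 3 differences for cKO minus AD were called, 1 of them shared. Quantile normalization turned Pdia3 (-0.11) and Hsp90ab1 (-0.26) in the cKO comparison, and Hspa8 (-0.10) and Hsp90ab1 (-0.42) in the difference of cKO and Aβ effects.

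The median log2 change of the ER genes in the cKO, 0.13, was -0.22 with quantile normalization, -0.10 rescaled to the total of reads and 0.041 with the trend removed, and that of the cytosolic genes, 0.14, was -0.16 and -0.093 under the 2 scalings and 0.24 with a filter at 5 FPKM. In the Aβ comparison the ER median, -0.0095, was 0.16 with quantile normalization, 0.060 rescaled and -0.11 with the trend removed.

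Leaving out each library in turn gave 0 to 3 members called in the cKO, 1 to 2 in the AD and 4 to 11 in the Aβ comparison, and 0 to 12, 9 to 16 and 0 to 4 differences (cKO minus AD, cKO minus Aβ, AD minus Aβ). The ER medians ran over 0.043 to 0.16 in the cKO, -0.29 to 0.09 in the AD and -0.04 to 0.04 in the Aβ comparison, and the cytosolic ones over 0.06 to 0.17, -0.24 to 0.01 and -0.38 to -0.18. A group left with 1 library was assumed to vary like the others.

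The labels do not say that replicate numbers pair libraries of the 2 groups, and the correlation of same-numbered deviations was 0.0332 in the cKO, 0.5507 in the AD and -0.1690 in the Aβ experiment. Adding a replicate block to the model gave 12, 4 and 12 called members, and 5, 17 and 2 differences. With the Aβ control numbers crossed, added after seeing the data, 11 were called.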
